A study of Mus musculus with 16 samples.

Results

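The set described here comprises 7 genes of myeloid cells, complement and inflammatory cell death: Gpnmb, C3, Itgam, Hk3, Tnfaip2, Casp1 and Hpse. They were picked by name from the 263 genes that the authors listed for the motor cortex beside a stroke, after their values in these libraries and the difference between recovered and non-recovered mice were known. They are 7 of 661 genes that the study lists in either hemisphere, and none of them is among the 417 genes listed for the opposite cortex. Poly(A) RNA of motor cortex (the primary area, M1) came from C57Bl6 mice that had undergone stroke, and recovery of movement was scored on a horizontal rotating beam, along which a mouse walks while keeping its balance. The spontaneously recovered group held 3 mice (animals 6, 23 and 28) and the non-recovered group 5 mice (animals 17, 19, 20, 21 and 29). Every mouse had a stroke, so no uninjured cortex is among the samples, and each mouse gave 1 ipsilesional and 1 contralesional library. The stroke model, the time after stroke, and the age and sex of the mice are details that the sources used here do not give.

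After a stroke, resident microglia, blood-borne monocytes and macrophages, and border macrophages clear dying tissue at the edge of the lesion. Complement C3 is the central protein of the complement cascade. Its cleaved fragments coat debris and synapses, which phagocytes then bind through complement receptor 3, a pair of integrin chains of which Itgam encodes one and Itgb2 the other. GPNMB is a transmembrane glycoprotein of phagocytes with a heavy load of lipid or debris, and hexokinase 3 is a glucose-phosphorylating enzyme found mainly in myeloid cells. Tnfaip2 was first described as a gene induced by tumour necrosis factor. Caspase 1 is the protease of the inflammasome, which activates interleukin 1β and interleukin 18, and heparanase, the product of Hpse, cuts heparan sulfate chains of the extracellular matrix. The libraries are of bulk tissue, in which more cells of a type and more RNA per cell cannot be told apart.

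The ipsilesional libraries were scaled by totals of 19.1 to 26.3 M reads, and that of animal 6 was 23.7 M, inside the range of the others. The 7 genes together held 3904 reads in animal 6, 407 in animal 23 and 326 in animal 28 of the recovered group, against 220 to 683 in the non-recovered libraries. Animal 6 also carries the only ipsilesional label code that starts with a different series number; what the codes stand for is not stated, and with 1 such library a cohort and an animal cannot be told apart. Of 19 microglial markers, 12 neutrophil markers and 15 lymphocyte markers, 0 are among the listed ipsilesional genes, and those genes were not analysed here. The microglial list used holds Itgb2 but not its partner Itgam, which is listed and is one of the 7. Of 8 border macrophage markers the table lists Lyve1, and of 13 markers of infiltrating monocytes Hk3, itself one of the 7. Which cells held these transcripts was not tested. Of 14 neuronal markers 5 are listed, and their summed level was 1442 CPM (read counts scaled to the library total) in animal 6, the lowest of the 8 libraries. The recovered libraries spanned 1442 to 1671 CPM for these neuronal markers and the non-recovered ones 1503 to 1667 CPM. Dlg4 alone made up 764 CPM of the sum in animal 6, and the 5 markers did not move together. Dlg4 and Calb1 had their lowest library in animal 6, Gad1 and Slc32a1 their second highest, and Nefh lay inside the range of the others. The part of cell composition in the differences below was not tested.

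Animal 6 had the highest level of all 7 genes among the 8 libraries. Of all 263 listed genes it was the highest library for 45 (17.1%) and the lowest for 64 (24.3%). Since the 7 were picked with this known, nothing is read from the difference between them and all listed genes. The non-recovered animal 21 was second for 5 of the 7, namely Gpnmb, C3, Itgam, Hk3 and Tnfaip2, and the non-recovered animal 19 was lowest for 4. Among all listed genes animal 21 was second for 14.8% and animal 19 lowest for 10.6%.

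Gpnmb (chromosome 6, 49036546 to 49070929, plus strand, coordinates here and below being those of whole genes in GENCODE M21 on GRCm38) showed the widest gap between animal 6 and the rest. Its level was 90.6, 2.12 and 2.92 CPM in recovered animals 6, 23 and 28, against 2.51, 2.09, 2.77, 9.05 and 2.92 CPM in non-recovered animals 17, 19, 20, 21 and 29. Animal 6 stood 3.31 above the next library, animal 21, on the log2 scale, and at 32.8 times the median of the 7 others. The recovered animals 23 and 28 both lay inside the range of the non-recovered group. The read number behind these values was 2151 in animal 6 and 40 to 222 in the others.

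C3 (chromosome 17, 57203970 to 57228136, minus strand) was at 34.7, 0.916 and 0.0449 CPM in recovered animals 6, 23 and 28, against 0.836, 0.523, 1.10, 3.67 and 1.46 CPM in non-recovered animals 17, 19, 20, 21 and 29. The recovered group thus held both the highest and the lowest library of the 8. Animal 28 had 1 C3 read (exact Poisson 95% interval 0.0253 to 5.57 reads, which covers counting error only), while animal 6 had 824. The other 6 libraries had 10 to 90 reads. On the log2 scale the 8 libraries covered a range of 8.07 for C3, against 5.38 for Gpnmb and 2.06 for Itgam.

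Itgam, the alpha chain of complement receptor 3 (chromosome 7, 128062640 to 128118491, plus strand), varied less. Its level was 22.1, 7.16 and 5.65 CPM in recovered animals 6, 23 and 28, against 5.28, 5.23, 6.59, 7.83 and 7.49 CPM in non-recovered animals 17, 19, 20, 21 and 29. Without animal 6 the 7 libraries lay within 0.57 on the log2 scale, and animals 23 and 28 lay among the non-recovered ones.

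Hk3 (chromosome 13, 55005985 to 55021385, minus strand) had 5.69, 1.96 and 0.897 CPM in recovered animals 6, 23 and 28, against 1.10, 0.994, 1.45, 2.16 and 1.42 CPM in non-recovered animals 17, 19, 20, 21 and 29. As for C3, animal 28 was the lowest library, here with 20 reads. Tnfaip2 (chromosome 12, 111442469 to 111455018, plus strand) had 4.72, 0.916 and 0.942 CPM in recovered animals 6, 23 and 28, against 0.722, 0.628, 1.01, 1.75 and 1.08 CPM in non-recovered animals 17, 19, 20, 21 and 29. For both genes animal 6 stood 2.6 to 2.7 times above animal 21, the next library, and at least 1 of the 2 other recovered animals lay inside the non-recovered range.

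Casp1 (chromosome 9, 5298517 to 5307265, plus strand) varied least of the 7 over the 8 libraries, by 0.93 on the log2 scale. Its level was 2.40, 1.83 and 2.15 CPM in recovered animals 6, 23 and 28, against 1.22, 1.31, 1.80, 1.75 and 1.65 CPM in non-recovered animals 17, 19, 20, 21 and 29. All 3 recovered libraries lay above all 5 non-recovered ones, the closest being animal 23 with 44 reads and animal 20 with 41. The exact Poisson 95% intervals of these 2 counts overlap (32.0 to 59.1 and 29.4 to 55.6 reads). Casp1 was the only gene of the 7 whose groups did not overlap. Of all listed genes, 20.9% had every recovered library above every non-recovered one, and 42.2% had no overlap in either direction. Animal 6 exceeded the next library, animal 28, by 0.15 on the log2 scale.

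Hpse (chromosome 5, 100679484 to 100719716, minus strand) lay between these patterns. It had 4.26, 2.04 and 2.02 CPM in recovered animals 6, 23 and 28, against 1.33, 0.732, 1.62, 1.63 and 2.04 CPM in non-recovered animals 17, 19, 20, 21 and 29. Animals 23 and 28 lay near the top of the non-recovered range, level with animal 29, and animal 19 was lowest with 14 reads.

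**Figure D1:**
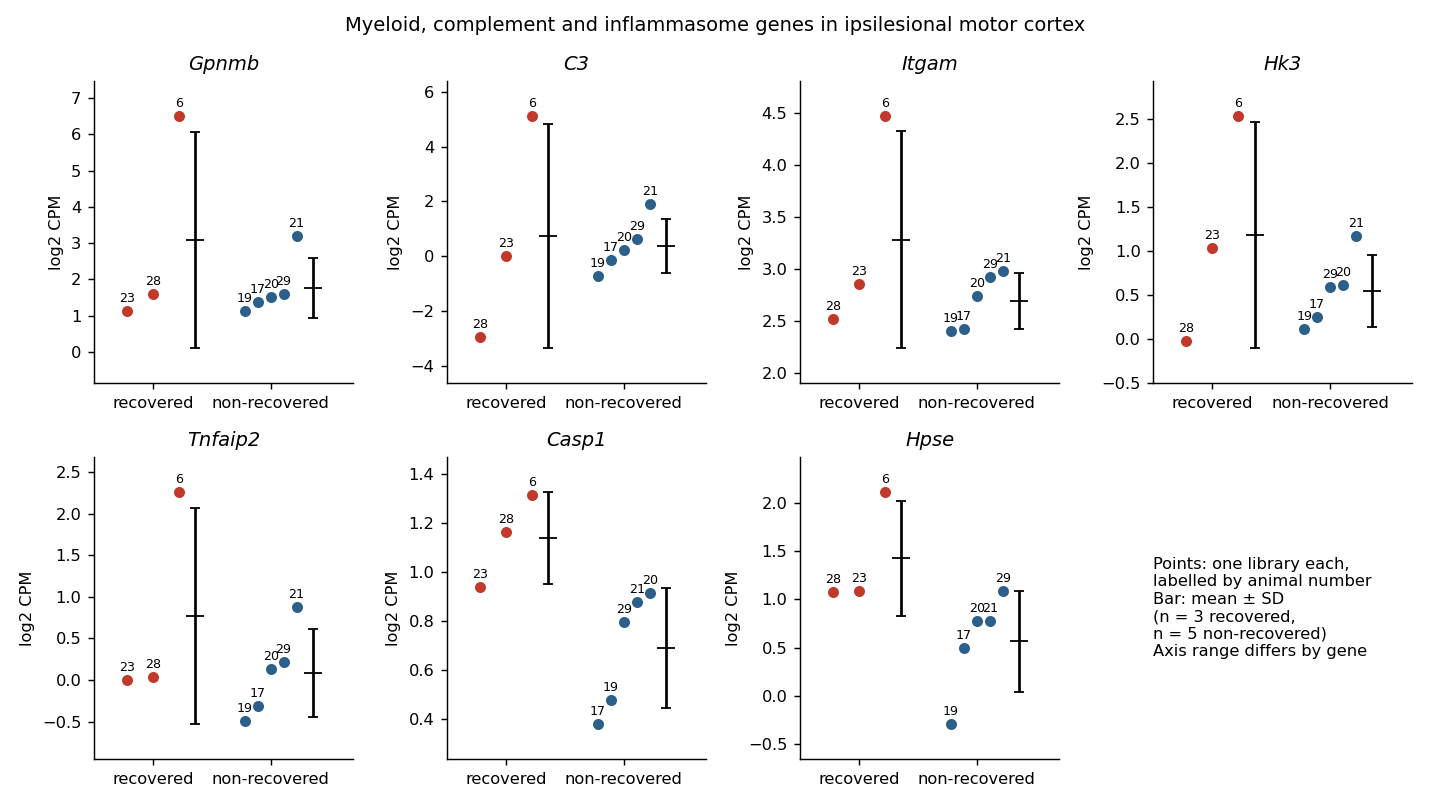
The vertical axis gives log2 CPM as deposited and each point is 1 library labelled by its animal number, with recovered mice left of non-recovered mice and bars for the mean ± SD (n = 3 and 5). Animal 6 is the highest point in every panel, and in the Casp1 panel alone do the groups not overlap.

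**Figure D2:**
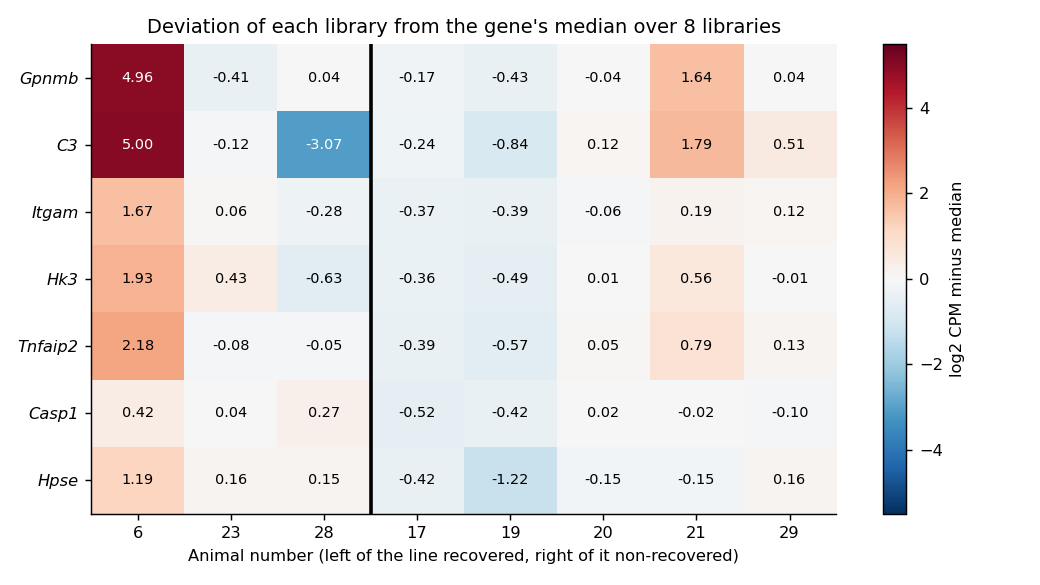
Each cell gives the log2 CPM of a gene (rows) in a library (columns, recovered left of the line and non-recovered right of it) minus the median of that gene over the 8 libraries. Animal 6 departs by 4.96 for Gpnmb and 5.00 for C3 but by 0.42 for Casp1, animal 21 by 1.64 and 1.79 for Gpnmb and C3, and animal 28 by -3.07 for C3.

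Levels per length ordered the genes differently in animal 6 and in the other mice. Reads were divided here by the summed length of the merged GENCODE exons, which may overstate the length of the transcripts made. In the 7 other libraries Itgam came first, with a median of 1.31 CPM per kb of exon (range 1.04 to 1.56), followed by Casp1 with 1.17 (0.812 to 1.44). These were the 2 highest medians, and their ranges overlap. Hpse (0.464), Gpnmb (0.425) and Hk3 (0.386) lay close together with ranges that overlap. Tnfaip2 (0.189) and C3 (0.178) had the lowest medians, also with overlapping ranges. Ranges overlapped across these groups of genes too, since C3 reached 0.714 and Gpnmb 1.39 CPM per kb in the 7 other libraries. In animal 6, Gpnmb led with 13.9 CPM per kb, C3 followed with 6.75 and Itgam came next, while Casp1 (1.60), Hk3 (1.55), Hpse (1.21) and Tnfaip2 (0.947) stayed under 2 CPM per kb.

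The comparison of recovered with non-recovered mice was fitted by limma on the deposited log2 CPM over all 263 listed genes, and a log2 fold change below is the mean of recovered minus that of non-recovered libraries, with its standard error (SE). Because the 7 genes were chosen with this contrast known, their values describe these libraries and support no further statement. All 7 means were higher in recovered mice, against 131 of all listed genes (49.8%). The median log2 fold change was 0.63 for the 7 and -0.13 for all listed genes. None of the 7 passed an adjusted p of 0.05 (limma with Benjamini-Hochberg adjustment over the table), against 3 listed genes (1.14%, 0 higher and 3 lower; 15 higher and 24 lower after quantile normalization). By unadjusted limma p, 2 of the 7 were under 0.05 (Casp1 and Hpse), where 98 listed genes (37.3%) were so in the same direction and 74.5% in either. With voom, which weights values by read number, the counts for the 7 were 0 adjusted and 2 unadjusted. Among all 263 listed genes voom gave 0 adjusted and 222 unadjusted.

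Casp1 had the smallest error among the 7, at a log2 fold change of 0.45 ± 0.15 (SE; limma adjusted p = 0.060). Its mean was 1.14 ± 0.19 log2 CPM in recovered mice (SD, n = 3) and 0.69 ± 0.24 in non-recovered mice (SD, n = 5). Hpse differed by 0.86 ± 0.35 (limma adjusted p = 0.066), with means of 1.43 ± 0.60 log2 CPM in recovered mice (SD, n = 3) and 0.57 ± 0.52 in non-recovered mice (SD, n = 5). Quantile normalization, computed over the listed genes alone, took both past the threshold (limma adjusted p = 0.00527 for Casp1 and 0.0482 for Hpse). It forces equal distributions on genes that are themselves a selection. For the other 5 genes the differences were 1.32 ± 1.16 for Gpnmb, 0.68 ± 0.55 for Tnfaip2, 0.63 ± 0.51 for Hk3, 0.59 ± 0.41 for Itgam and 0.34 ± 1.57 for C3 (limma adjusted p = 0.191 to 0.835). The spread in the recovered group was wide, with an SD of 2.98 log2 CPM for Gpnmb and 4.08 for C3 (n = 3), against 0.82 and 0.98 in the non-recovered group (n = 5).

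Left without animal 6, which leaves the 7 libraries whose label codes share 1 series number, 5 of the 7 differences turned negative and Casp1 and Hpse stayed positive. Casp1 was then at 0.36 ± 0.17 (SE) and Hpse at 0.51 ± 0.33. Itgam was at -0.0067 ± 0.19, Hk3 at -0.044 ± 0.35, Tnfaip2 at -0.065 ± 0.34, Gpnmb at -0.39 ± 0.52 and C3 at -1.86 ± 0.90 (limma adjusted p = 0.114 to 0.973 over the 7 genes). Their median was then -0.044, and that of all listed genes was -0.10. Without animal 28, which had the single C3 read, the C3 difference was 2.17 instead of 0.34, that of Hk3 1.23 and that of Itgam 0.97. Without animal 23, the differences of Gpnmb and Tnfaip2 were 2.29 and 1.07.

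**Figure D3:**
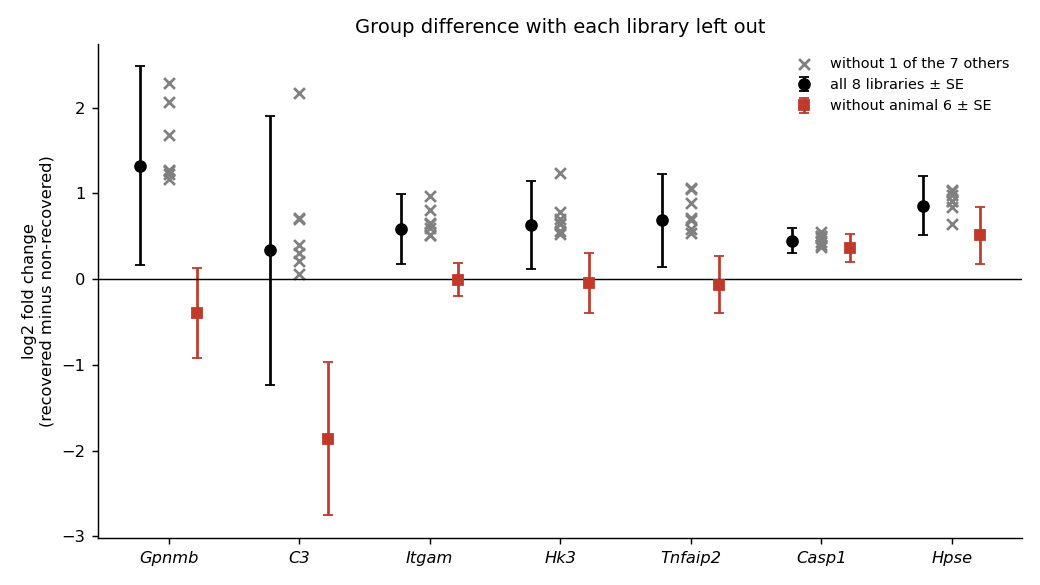
The vertical axis is the log2 fold change of recovered over non-recovered mice for each gene; black points use all 8 libraries (± SE), grey crosses leave out 1 of the 7 other libraries, and red squares leave out animal 6 (± SE). Gpnmb, C3, Itgam, Hk3 and Tnfaip2 are at or under 0 without animal 6, whereas Casp1 (0.36) and Hpse (0.51) stay above it.

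**Figure D4:**
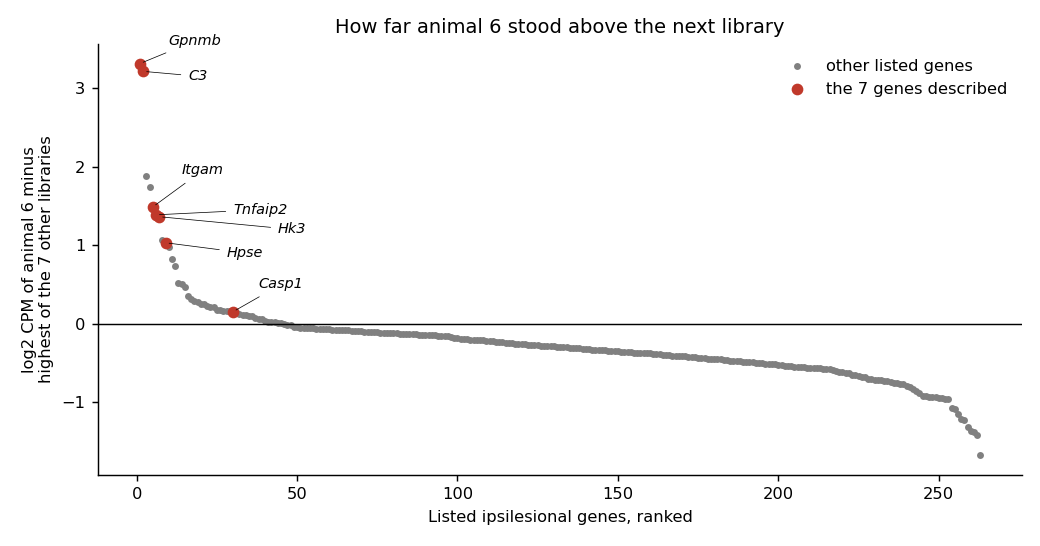
Every listed ipsilesional gene is ranked by the log2 CPM of animal 6 minus that of the highest of the 7 other libraries. Gpnmb (3.31) and C3 (3.21) have the largest gaps, Itgam, Tnfaip2 and Hk3 take places 5 to 7, Hpse place 9 and Casp1 place 30 with 0.15.

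Profiles over the libraries were compared by the root mean square difference after each gene was centred on its mean and scaled to an SD of 1, so that a low value means alike; it is a description over 8 libraries that share animal 6 as an extreme. The median over all pairs of listed genes was 1.34. Among Gpnmb, C3, Itgam, Hk3 and Tnfaip2, a grouping made after the values were seen, the 10 pairs lay between 0.20 and 0.48. The 11 pairs that involve Casp1 or Hpse lay between 0.53 and 1.07. Of all listed genes, Tnfaip2 (0.20) and Itgam (0.30) were most like Gpnmb. Those most like Itgam were Tnfaip2 (0.25) and Hk3 (0.26), while Hk3 (0.33) and the long non-coding RNA Neat1 (0.42) were most like C3. Nearest to Hk3 were Itgam (0.26) and Sp110, which encodes a nuclear body protein of leukocytes (0.27), and nearest to Tnfaip2 were Gpnmb (0.20) and Itgam (0.25). Casp1 was closest to 2 genes outside the set, AA414768 (0.44) and Xkr7 (0.48). Likewise Hpse was closest to Fnip2 (0.40) and Ppfia4 (0.44).

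Part of this order also held without animal 6. Over the 7 remaining libraries Gpnmb and Tnfaip2 were still each other's nearest listed gene (0.42), against a median of 1.31 over all pairs. Animal 21 was the highest of these libraries for both, at 1.64 and 0.79 above the median of all 8 in log2 CPM. The others lay at 0.13 or lower, and how far the likeness rests on animal 21 was not tested. Itgam and Hk3 were then nearest to each other (0.45), whereas over all 8 libraries Tnfaip2 was nearer to Itgam. Sp110 was again second to Hk3 (0.50). C3 then had Rdm1 (0.55) and Aldh6a1 (0.57) as its nearest genes, and the 10 pairs among the 5 genes ranged from 0.42 to 0.88. The 11 pairs with Casp1 or Hpse then ranged from 0.66 to 1.47, so that the ranges overlapped, unlike over all 8 libraries.

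**Figure D5:**
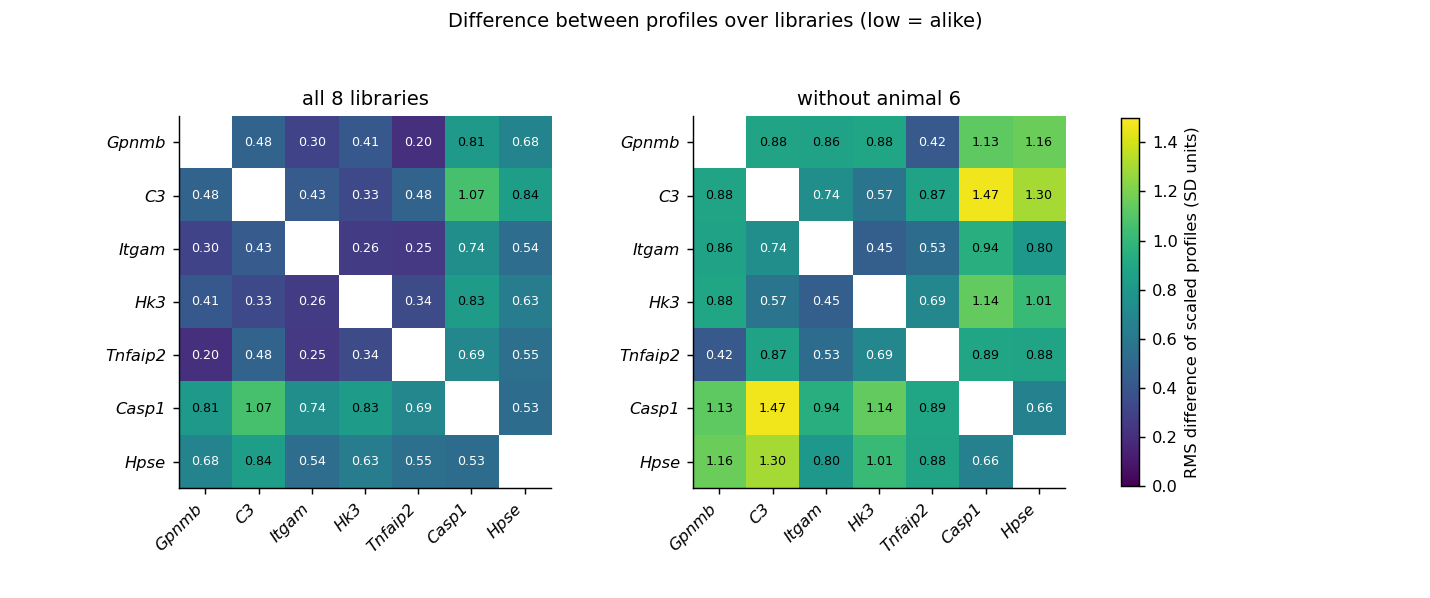
Each cell is the root mean square difference between the scaled profiles of a pair of genes, in SD units, over all 8 libraries (left) and over the 7 without animal 6 (right). Gpnmb with Tnfaip2 is the lowest pair on both sides (0.20 and 0.42), and C3 with Casp1 the highest (1.07 and 1.47).

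Because Gpnmb, C3, Itgam, Hk3 and Tnfaip2 were high together in 1 animal, their promoters are printed, as the bases from 250 before to 50 after the RefSeq start on GRCm38.p6, each 5′ to 3′ on the strand of its gene. Capitals mark the letters of GAGGAAG (a core bound by PU.1, a transcription factor of myeloid cells), TGACTCA (an AP-1 core) or GGAAGT (an ETS family core, which can overlap GAGGAAG), read on either strand.
Gpnmb, chr6:49036268-49036567, plus strand: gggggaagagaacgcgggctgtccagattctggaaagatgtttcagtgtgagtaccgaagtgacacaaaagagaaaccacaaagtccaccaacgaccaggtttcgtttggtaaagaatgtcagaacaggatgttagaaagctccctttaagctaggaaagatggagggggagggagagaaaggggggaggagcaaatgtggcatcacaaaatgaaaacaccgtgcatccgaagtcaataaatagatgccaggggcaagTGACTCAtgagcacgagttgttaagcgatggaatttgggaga
Itgam, chr7:128062390-128062689, plus strand: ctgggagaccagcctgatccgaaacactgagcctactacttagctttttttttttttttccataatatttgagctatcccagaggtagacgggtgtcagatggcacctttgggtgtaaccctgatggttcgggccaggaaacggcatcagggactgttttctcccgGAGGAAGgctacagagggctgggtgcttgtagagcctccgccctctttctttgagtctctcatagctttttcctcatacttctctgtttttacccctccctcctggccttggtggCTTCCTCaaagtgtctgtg
Hk3, chr13:55021336-55021635, minus strand: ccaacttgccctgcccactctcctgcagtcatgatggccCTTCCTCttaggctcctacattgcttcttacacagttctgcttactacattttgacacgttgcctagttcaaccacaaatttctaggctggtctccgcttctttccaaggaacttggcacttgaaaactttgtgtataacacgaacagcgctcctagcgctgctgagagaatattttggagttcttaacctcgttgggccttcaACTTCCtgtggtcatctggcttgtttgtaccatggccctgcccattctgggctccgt
C3, chr17:57228087-57228386, minus strand: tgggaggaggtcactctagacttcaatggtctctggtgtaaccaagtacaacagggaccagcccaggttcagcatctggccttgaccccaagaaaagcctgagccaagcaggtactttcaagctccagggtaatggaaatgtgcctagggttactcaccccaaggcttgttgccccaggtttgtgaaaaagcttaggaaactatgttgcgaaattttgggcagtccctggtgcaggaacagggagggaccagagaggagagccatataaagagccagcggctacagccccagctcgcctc
Tnfaip2, chr12:111442411-111442710, plus strand: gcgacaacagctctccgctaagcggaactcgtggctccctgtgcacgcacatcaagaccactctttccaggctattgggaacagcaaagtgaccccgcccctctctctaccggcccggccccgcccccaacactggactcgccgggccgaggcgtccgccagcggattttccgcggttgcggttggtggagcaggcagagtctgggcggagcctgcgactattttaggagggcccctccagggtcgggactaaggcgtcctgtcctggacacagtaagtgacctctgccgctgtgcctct
All 7 genes matched a promoter window. GAGGAAG stood in 2 of the 7, in Itgam at 84 bases before the start and again, on the opposite strand, 31 bases after it, and in Hk3 at 211 bases before the start on the opposite strand; 13.6% of 32851 promoter windows hold it. TGACTCA stood in 1, Gpnmb, 8 bases after the start, against 5.20% of windows. GGAAGT stood in Hk3 alone, on the opposite strand 7 bases before the start, against 23.8%. The E-boxes TCACGTG and TCATGTG stood in 0 of the 7, with 3.77% of windows holding each. The windows of C3, Tnfaip2, Casp1 and Hpse hold none of these 5 motifs. A match is a run of letters, not a bound site, and no match says only that these letters are not in this window.

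Other genes of the same pathways were counted from fixed lists of their members. Of 30 complement genes the ipsilesional table lists C3 and Itgam. Of the 21 genes on the list for inflammasome and interleukin 1 it lists Casp1 and Pidd1. Pidd1 encodes a death-domain scaffold that activates caspase 2 and a part of NF-κB signalling, and is not a component of the inflammasome. Pidd1 differed by 0.74 ± 0.17 (SE; limma adjusted p = 0.0532) and by 0.72 without animal 6, in which it was second highest. Of 20 genes of phagocyte activation and lipid handling the table lists Gpnmb and Abcg1, which exports cholesterol from macrophages and also from astrocytes and neurons. Abcg1 was at 90.1 CPM in animal 6, the highest library, against 58.6 to 72.2 CPM in the others, and its difference was 0.24 ± 0.11 (SE; limma adjusted p = 0.0672), or 0.11 without animal 6. Hk3 was the only listed gene of 13 for infiltrating monocytes and of 18 for glycolysis, Tnfaip2 of 16 targets of tumour necrosis factor and NF-κB, and Hpse of 21 for heparan sulfate turnover and matrix proteases. Lyve1, the only listed gene of 8 for border macrophages, lay the other way, with 0.716 CPM in animal 6 and a difference of -0.95 ± 0.22 (SE; limma adjusted p = 0.0532). Of 12 interferon-induced genes 0 are listed. None of these list genes outside the set passed the adjusted threshold beside the lesion. Of all 263 listed genes only 3 (1.14%) did, so this count does not set these pathways apart.

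Few markers of other cells are listed. Dlg4, a postsynaptic scaffold gene, was at 764 CPM in animal 6 against 904 to 1035 CPM in the other 7 libraries, and Calb1, a calcium-binding protein gene of neurons, at 89.8 against 110 to 137 CPM. Both had their lowest library in animal 6. The interneuron genes Gad1 and Slc32a1 each had their second-highest library in animal 6, and Nefh, a neurofilament gene, was at 114 CPM there against 86.3 to 122 CPM in the others. The single listed genes of reactive astrocytes (Hspb1), oligodendrocyte lineage (Bmp4) and mural cells (Tbx18), and the 3 of meningeal fibroblasts (Ptgds, Slc22a6 and Slc6a20a), were each inside the range of the other libraries in animal 6.

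In the opposite hemisphere the 7 genes are not listed, but 12 other genes of these pathways are. They come from the same mice, and the gene lists that name them were chosen with earlier results of these data known. Since each hemisphere's table has its own normalization, levels are compared only within it. None of the 12 passed an adjusted p of 0.05 (limma over 417 listed genes, of which 7.91% did, 8 higher and 25 lower, or 70 higher and 7 lower after quantile normalization), and 7 had an unadjusted limma p under 0.05, where 73.4% of listed genes did; with voom the counts were 0 and 11. Of the 7, 3 were higher and 4 lower in recovered mice. Itgb2, the partner chain of Itgam in complement receptor 3, had 5.23, 5.24 and 3.95 CPM in recovered animals 6, 23 and 28, against 4.12, 3.39, 3.77, 4.73 and 3.72 CPM in non-recovered animals 17, 19, 20, 21 and 29. The groups overlapped, and the difference was 0.28 ± 0.13 (SE; limma adjusted p = 0.0732). Which of the contralesional libraries numbered 6 and 23 belongs to which mouse is uncertain, since the number 23 there goes with the label code that number 6 has beside the lesion; both are recovered mice.

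The receptor gene of interleukin 1, Il1r1, had 3.14, 2.54 and 3.78 CPM in contralesional cortex of recovered animals 6, 23 and 28, against 3.98, 4.07, 4.11, 3.90 and 4.05 CPM in non-recovered animals 17, 19, 20, 21 and 29. Its groups did not overlap, with a difference of -0.36 ± 0.11 (SE; limma adjusted p = 0.0520). Aim2, a DNA sensor that assembles an inflammasome with caspase 1, averaged 0.896 ± 0.136 CPM in recovered mice (SD, n = 3) and 1.27 ± 0.247 CPM in non-recovered mice (SD, n = 5), a difference of -0.46 ± 0.15 (SE; limma adjusted p = 0.0569). Irf8, a transcription factor of microglia and other myeloid cells, differed by -0.35 ± 0.13 (SE; limma adjusted p = 0.0590). The growth factor gene Igf1 (-0.24), the fibronectin gene Fn1 (-0.22), the matrix protease gene Mmp2 (0.43) and the glycolytic genes Gpi1 (0.12), Aldoa (0.16), Eno1 (0.13) and Ldha (0.16) had limma adjusted p = 0.059 to 0.0893. The members of the complement and inflammasome lists therefore had values of either sign in this hemisphere, with Itgb2 higher and Aim2 and Il1r1 lower in recovered mice, none past the threshold.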

How the data were processed

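Per the labels' protocols, RNA was extracted with Trizol and RNeasy columns and made into stranded TruSeq mRNA libraries. Tools named in the submitters' processing notes, without their roles, are STAR 2.5.1b, Trimmomatic 0.38, bcl2fastq and edgeR, and the build is mm10. How reads were counted, and how genes were selected for the tables, is not given in the sources used here. The authors deposited log2 CPM values per library for 263 ipsilesional and 417 contralesional genes. Each value solved to whole reads plus a prior count scaled to the library total (mean 2.0 reads, or 0.085 CPM beside the lesion); 100% of values came out whole within 0.01. CPM in the text are these reads scaled to the total recovered for each library, which may include a normalization factor. The listed genes held 2.55% of the ipsilesional totals on average.

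limma 3.58.1 in R 4.3.3 was fitted to the deposited log2 values over each whole table, recovered minus non-recovered, with no filter and no covariate, and adjusted by Benjamini-Hochberg over that table. As the tables are selections from the same libraries, such adjusted p-values can be smaller than over all genes. The 7 genes and the 17 gene lists were chosen with earlier results of these data known. Genes named besides the 7 are listed members of those lists and, for each of the 7, the 2 listed genes with the nearest scaled profile; exceptions are named as such. The fit was tested on simulated reads in which no library stood apart. That simulation does not cover a spread like that of Gpnmb and C3 in the recovered group. Promoter sequences are from RefSeq on GRCm38.p6, with 250 bases before and 50 after each start. Python 3.11.15 was used for the tables. Alternatives were other pseudocounts (1 and 0.1), voom, quantile normalization, a variance trend, a filter at a mean of 1 CPM, and leaving out each library. Quantile normalization used only the listed genes of each table, which are a selection, and can itself shift group differences. The result of 1 of the 12 contralesional pathway genes is counted but not reported here.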

Additional observations from a re-analysis of the deposited data

Results flagged for a closer look

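Among the 5 non-recovered ipsilesional libraries, animal 21 stood far from the others for Gpnmb, at 3.19 log2 CPM, where the other 4 lay between 1.12 and 1.59. The gap was 0.776 of the group's range, above Dixon's critical value of 0.710 for 5 samples. The same library was also the highest non-recovered one for C3, Itgam, Hk3 and Tnfaip2, with gaps of 0.488, 0.111, 0.520 and 0.486 of the range, none of which passed. Both ends of 19 genes were examined in this way, and chance flags about 1 in 20 groups. Groups of 3 are not examined by this rule, so the high values of recovered animal 6 were not tested.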

How the results depend on the processing

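Over the settings tried, the 7 ipsilesional differences kept their direction except without animal 6, where 5 of them reversed (-0.39 for Gpnmb, -1.86 for C3, -0.0067 for Itgam, -0.044 for Hk3 and -0.065 for Tnfaip2); fewer samples and the loss of 1 extreme library are part of that alternative. With 1 library left out the differences ranged from -0.39 to 2.29 for Gpnmb, -1.86 to 2.17 for C3, -0.0067 to 0.97 for Itgam, -0.044 to 1.23 for Hk3, -0.065 to 1.07 for Tnfaip2, 0.36 to 0.55 for Casp1 and 0.51 to 1.03 for Hpse. Quantile normalization, computed over the listed genes alone, moved their median from -0.13 to -0.01. It brought Casp1 (0.65, limma adjusted p = 0.00527) and Hpse (1.01, limma adjusted p = 0.0482) past the threshold. A variance trend did so for Hpse (0.86, adjusted p = 0.0494). Over all settings the limma or voom adjusted p ranged from 0.00527 to 0.114 for Casp1 and from 0.0482 to 0.195 for Hpse. The number of listed ipsilesional genes past an adjusted p of 0.05 was 3 (196 unadjusted), 1 on log2(CPM + 1), 0 with voom (222 unadjusted), 39 after quantile normalization (15 higher, 24 lower), 189 with the trend, and 0 to 18 with 1 library left out. Leaving out animal 17, 21 or 23 gave 0, animal 20 gave 1, animal 6 gave 6, animal 29 gave 7, animal 19 gave 13 and animal 28 gave 18. The cause of these shifts was not tested.

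The contralesional settings were added after seeing the data. The count was 33 (8 higher, 25 lower), 3 on log2(CPM + 1), 0 with voom (356 unadjusted), 77 after quantile normalization (70 higher, 7 lower), 0 with the trend (360 unadjusted), and 0 to 74 with 1 library left out. The 12 pathway genes kept their direction in every setting. Named genes brought past the threshold were Itgb2 and Mmp2 by quantile normalization, Igf1 and Fn1 without animal 6, Irf8 without 23, Il1r1 without 28 and Aim2 without 29. Of all 417 listed genes, 58 passed without animal 6, 16 without 23, 6 without 28 and 74 without 29. No paired analysis was possible because the recovered and non-recovered groups share no animal number. Reads limit the low genes most: C3, Tnfaip2, Hk3 and Hpse had fewer than 25 reads in at least 1 library. Casp1 was also low, with 25 reads in animal 19 and at most 57 in any ipsilesional library.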

Other observations

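Outside the set, 8 listed genes also stood more than 0.5 log2 CPM higher in ipsilesional cortex of animal 6 than in any other library; they are named here after their values were seen. Neat1, a long non-coding RNA that scaffolds nuclear paraspeckles, was at 32.7 CPM in animal 6 against 5.61 to 8.78 CPM in the other 7 libraries, and Col15a1, a basement membrane collagen gene, at 16.1 against 3.25 to 4.76 CPM. Plau, the gene of urokinase plasminogen activator, was at 9.27 against 4.13 to 5.18 CPM, and Plxnb3, a semaphorin receptor gene, at 24.1 against 9.79 to 14.4 CPM. Sp110 was at 4.64 against 0.942 to 2.16 CPM, and the transcript AW112010 at 2.74 against 0.684 to 1.35 CPM. Ptger4 and Ncaph exceeded the next library by 0.52 and 0.50. The group differences of Neat1, Col15a1, Sp110, Plau, Plxnb3 and AW112010 (0.56, 0.69, 0.62, 0.41, 0.47 and 0.65 on the log2 scale; limma adjusted p = 0.074 to 0.312) were -0.22, 0.041, 0.063, 0.096, 0.16 and 0.27 without animal 6.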
